A study of Mus musculus with 3 samples.

Results

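Cytosolic ribosomal protein genes encode the protein parts of the ribosome in the cytoplasm, and their acetylation of lysine 27 of histone H3 (H3K27ac) was measured in tumour-associated myeloid cells. The members were the genes of the deposited region table whose symbols begin with Rpl, Rps or Rplp and a number, without the Rps6k kinases and the pseudogenes. There were 78 of them among 13443 genes with a region. Sorted by symbol alone, 45 were counted as large subunit genes and 29 as small subunit genes, paralogs included, and 3 as stalk genes. The stalk is part of the large subunit and is kept apart here. The remaining member, Rps19bp1, carries the name of a partner of Rps19 and is not itself a ribosomal protein. RefSeq lists 88 coding genes under the same symbol pattern. Of the 10 with no region in the table analysed, Rpl15, Rpl41 and Rps21 encode ordinary ribosomal proteins, and the others include Rpl10l and Rpl39l, paralogs known for expression in testis.

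The myeloid-derived suppressor cells (MDSC) had been sorted as CD45+, CD11b+, Ly6C+, Ly6G+ or Ly6G- and F4-80- from subcutaneous tumours of female SCID.beige mice, which lack functional T and B cells. The mice were 6 to 8 weeks old and had been injected with human breast cancer cells (MDA.MB.231-X1.1) or with mouse colon carcinoma cells (CT26), and both ChIP libraries are marked tnbc. One group received GNE-781, an inhibitor of the CBP/EP300 bromodomain, at 25 mg/kg by mouth in 2 daily doses for 7 days, and the other received the vehicle MCT. There was 1 H3K27ac library per treatment and 1 pooled input library, which was not analysed here. How many mice stand behind a library is not given in the sources used here, so every value is a single measurement without replicate error, and no test was possible.

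Ribosomal proteins are made in nearly equal amounts and assemble with ribosomal RNA in the nucleolus. Their genes are transcribed in every cell type from short promoters, often with a CpG island, and many of their messengers begin with a cytosine and a run of pyrimidines (the terminal oligopyrimidine or TOP motif) through which mTOR and Larp1 control translation. H3K27ac marks active promoters and enhancers, and CBP and EP300 are acetyltransferases that write it.

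The sequences of promoters with some of the largest and smallest differences between the libraries are shown first, because the H3K27ac regions described here sit on them. They were read from RefSeq (GRCm38.p6) as the stretch from 100 bases before the annotated start to 30 bases from the start onwards, on the strand of the gene. Capitals mark matches, on either strand, to AAGATGGC (YY1), CCGGAAG (ETS factors such as GABP), GGGCGG (SP and KLF factors), TATAA (TATA-like) or CACGTG (E-box), and a start tract, meaning a C within 5 bases of the annotated start that is followed by 4 or more pyrimidines. Only the 59 members with a RefSeq promoter sequence at hand were considered. Rpl32 and Rpl23a, with differences of -2.38 and -0.86, had none and are not shown. Among the members considered whose annotated start lies inside their region, the 4 with the lowest difference were Rpl5 (chr5:107900428-107900557, plus strand), Rpl19 (chr11:98026610-98026739, plus strand), Rplp0 (chr5:115559367-115559496, plus strand) and Rps23 (chr13:90923022-90923151, plus strand).
Rpl5: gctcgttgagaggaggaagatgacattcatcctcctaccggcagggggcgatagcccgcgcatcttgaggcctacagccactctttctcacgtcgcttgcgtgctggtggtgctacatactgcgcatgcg
Rpl19: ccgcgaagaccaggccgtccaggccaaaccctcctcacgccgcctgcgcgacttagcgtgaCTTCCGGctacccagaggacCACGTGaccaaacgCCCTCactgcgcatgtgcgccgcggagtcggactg
Rplp0: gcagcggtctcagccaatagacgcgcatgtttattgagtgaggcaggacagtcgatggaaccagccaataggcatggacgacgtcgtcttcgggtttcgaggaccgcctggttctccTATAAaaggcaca
Rps23: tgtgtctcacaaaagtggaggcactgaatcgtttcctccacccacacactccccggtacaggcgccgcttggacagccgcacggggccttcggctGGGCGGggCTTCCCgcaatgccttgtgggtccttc
Of the same members, the 4 with the highest difference were Rpl39 (chrX:37085193-37085322, minus strand), Rps24 (chr14:24490578-24490707, plus strand), Rps4x (chrX:102189362-102189491, minus strand) and Rpl7l1 (chr17:46782627-46782756, minus strand).
Rpl39: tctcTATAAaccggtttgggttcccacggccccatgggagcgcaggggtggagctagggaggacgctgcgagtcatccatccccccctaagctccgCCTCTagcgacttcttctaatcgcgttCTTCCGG
Rps24: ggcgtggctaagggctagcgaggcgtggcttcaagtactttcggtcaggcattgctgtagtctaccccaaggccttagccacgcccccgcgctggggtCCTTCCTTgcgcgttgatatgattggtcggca
Rps4x: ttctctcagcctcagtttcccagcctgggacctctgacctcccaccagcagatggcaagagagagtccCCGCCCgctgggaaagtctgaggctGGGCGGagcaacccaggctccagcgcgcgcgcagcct
Rpl7l1: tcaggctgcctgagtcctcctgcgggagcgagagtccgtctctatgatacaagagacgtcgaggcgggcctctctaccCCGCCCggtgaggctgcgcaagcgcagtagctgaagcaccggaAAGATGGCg
No pattern of matches separated these sets. Rpl5 held no match in this window, Rplp0 held TATAA alone, Rps24 held a start tract alone, and Rpl19 and Rpl39 each held matches of 3 kinds.

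Across the windows from 250 bases before to 50 after the start, which RefSeq gives for 59 members, start tracts and ETS matches were more frequent than in other promoters. A start tract was found in 26 of 59 member promoters (44.1%), against 19.995% of 8582 promoters of genes with a region within 1000 bp of the start and 18.3% of all 32851 promoters. CCGGAAG was found in 21 member promoters (35.6%), against 21.1% of promoters with such a region and 8.86% of all. TATAA was found in 16 (27.1%), against 12.1% and 24.9%, and AAGATGGC in 5 (8.47%), against 5.14% and 2.75%. GGGCGG was found in 35 (59.3%), against 64.9% and 35.7%, and CACGTG in 5 (8.47%), against 10.5% and 7.15%. The median GC content of the window was 58% in members, against 61.3% in promoters with such a region. The H3K27ac difference, defined in the next paragraph, had a median of -1.68 in the 26 members with a start tract and of -1.83 in the 33 without, and of -1.77 in the 21 with CCGGAAG and -1.81 in the others. A match describes the letters of the window and not a bound site, and members share their libraries, so these medians carry no test.

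**Figure D1:**
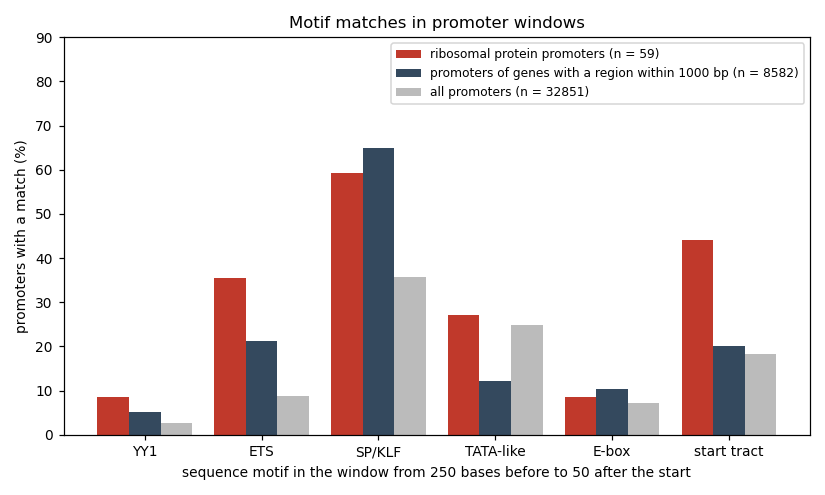
Bars give the percentage of promoter windows with a match to each motif (y axis) for ribosomal protein genes, for genes with an H3K27ac region within 1000 bp of the start, and for all promoters in the RefSeq table. The start tract was found in 44.1% of the 59 member promoters, against 19.995% and 18.3% in the other sets.

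H3K27ac signal was lower with inhibitor at the region nearest the start of all 78 members, as it was at 99.7% of all genes and at 99.9% of genes with a region within 1000 bp of the start, and the size of the difference was close to that of other genes. Signal is the average over a region of the authors' fragment pileup, and the difference is log2(inhibitor + 1) minus log2(vehicle + 1), so that -1 is a 2-fold and -2 a 4-fold lower signal on that scale. The median signal of the members was 5.70 with inhibitor and 22.7 with vehicle, against 5.28 and 18.7 over all genes. The median difference was -1.81 in members, with quartiles of -1.98 and -1.55, and -1.72 over all genes, with quartiles of -1.97 and -1.43. Of the 78 members, 74 were at least 2-fold lower, a share that equals the 94.9% of all genes, and 15 were at least 4-fold lower (19.2%), against 23% of all genes. Without the pseudocount 35 were at least 4-fold lower, against 41.2% of all genes. No member was at least 2-fold higher (0.126% of all genes, and 0.0428% of those with a region within 1000 bp). Neither share sets the ribosomal protein genes apart. All 78 regions held a called vehicle interval, and 62 of them had no inhibitor interval. Regions chosen by a vehicle call favour a lower signal with inhibitor, so the shared direction is in part set by that choice.

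The general difference between the libraries depends on how they are scaled. The median over all 22399 regions was -1.61, nearly all regions (22310) had been called with vehicle and 2298 with inhibitor, and whether the deposited pileup includes a scaling by the Drosophila spike-in is not known. Relative to that median, 55 members (70.5%) lay below 0 and 23 above, against 60.7% of all genes below 0, and the member median was -0.20. On that scale 1 member, Rpl5, was at least 2-fold lower, against 0.521% of all genes.

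**Figure D2:**
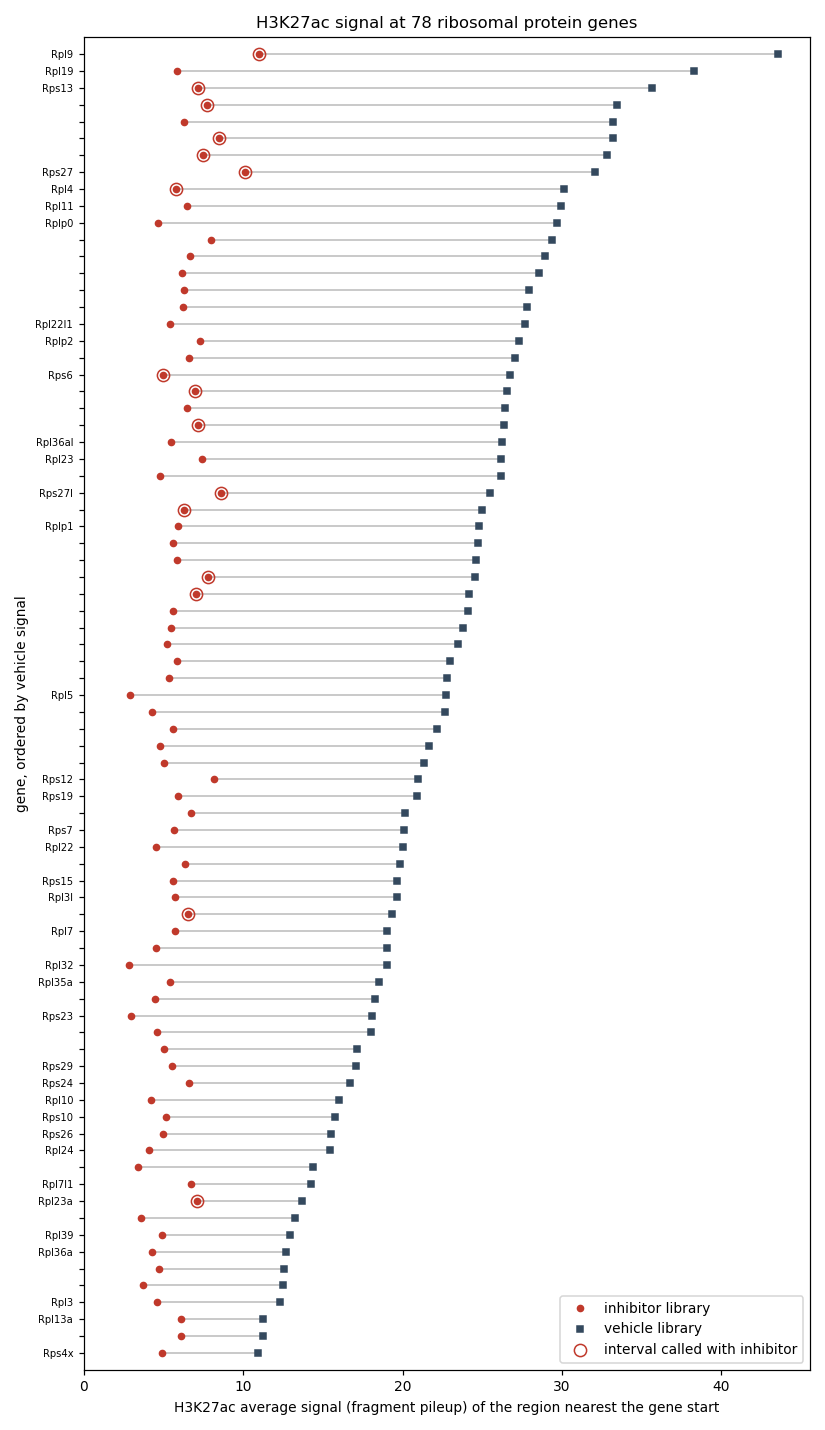
Each line is a ribosomal protein gene, some of them named at the left, with the average H3K27ac signal (fragment pileup, x axis) of its nearest region in the inhibitor library (circle) and in the vehicle library (square). The inhibitor signals lie between 2.83 and 11 and the vehicle signals between 10.9 and 43.5, and each gene is lower with inhibitor; open rings mark the 16 genes with an interval called with inhibitor.

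The regions sat at the gene starts. For 72 of 78 members (92.3%) the centre of the nearest region lay within 1000 bp of the start, against 88.6% to 92.2% in the 3 groups of like function described below and 69.6% of all genes, and 56 of the 59 members with a RefSeq start had that start inside the region. The centre was downstream of the start in 74.4% of members (67.8% of all genes). A CpG island overlapped the region of 73 of the 78 members (93.6%), against 90.5% to 97.1% in the 3 groups of like function and 75.3% over all genes. Among members with a region within 1000 bp the share was 97.2%, against 85.5% over all genes with such a region. Rpl4, Rpl36a, Rpl7l1 and Rpl13a were among the members without a CpG island. The median length was 1720 bp, against 1581 bp over all genes. Since a larger share of members had a region near the start, those 72 members, called promoter-marked below, are also set beside the 9350 promoter-marked genes. Among them 70 members (97.2%) were at least 2-fold lower, against 96%, and 15 (20.8%) were at least 4-fold lower, against 26.2%. Their median differences were -1.83 and -1.77.

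Vehicle signal at ribosomal protein genes was moderately above that of other promoters. All genes were divided into 4 classes of about equal size by vehicle signal. Of the promoter-marked members, 38.9% were in the highest class and 8.33% in the lowest, against 28.2% and 19.3% of all promoter-marked genes. In the groups of like function, the highest class held 22.6% of promoter-marked mitochondrial ribosomal protein genes. It held 53.2% of translation initiation factor genes and 33.8% of oxidative phosphorylation subunit genes, again promoter-marked. The highest vehicle signals were at Rpl9, Rpl19 and Rps13. Rpl9, a large subunit protein near the stalk, had signals of 11 with inhibitor and 43.5 with vehicle (chr5:65390087-65392377, in gene, difference -1.89), and they ranked above 98.8% and 98.0% of all genes. Rps13, a small subunit protein, had 7.19 with inhibitor and 35.7 with vehicle (-2.16). Among the lowest were Rps4x (4.90 with inhibitor and 10.9 with vehicle) and Rpl13a (6.09 with inhibitor and 11.2 with vehicle). Signals in the inhibitor library ranged from 2.83 at Rpl32 to 11 at Rpl9.

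The difference was larger where vehicle signal was higher, in members as in all promoter-marked genes. From the lowest to the highest class of vehicle signal, the medians of the promoter-marked members were -1.25 (6 genes), -1.66 (12), -1.87 (26) and -1.99 (28), against -1.30, -1.58, -1.82 and -2.04 for all promoter-marked genes. The vehicle value enters both measures. In the highest class 11 of 28 members (39.3%) were at least 4-fold lower, against 57.1% of all promoter-marked genes in that class. In the next class 3 of 26 members (11.5%) were, against 24.7%. These are descriptions of 2 libraries, and no test of the gap between members and other genes was possible.

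**Figure D3:**
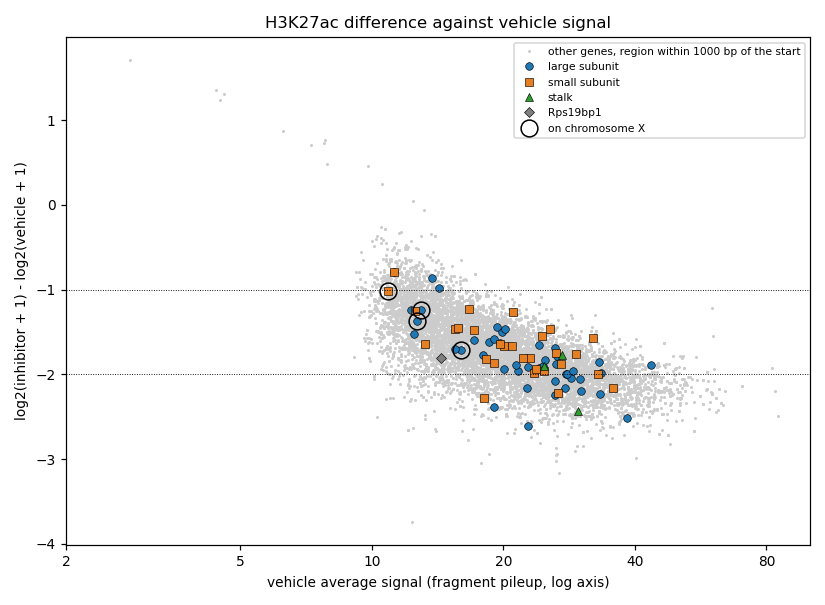
The log2 difference of each gene (y axis) is plotted against its vehicle signal (x axis, log scale) for ribosomal protein genes by subunit and, in grey, for other genes with a region within 1000 bp of the start. Large black rings mark genes on chromosome X and dotted lines mark 2-fold and 4-fold lower signal; Rps4x at -1.01 and 10.9 is at the upper left, and Rpl5 at -2.61 is the lowest member.

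The members with the lowest differences were Rpl5, Rpl19, Rplp0, Rpl32 and Rps23. Rpl5, which with Rpl11 and 5S RNA forms a particle that binds MDM2, had signals of 2.89 with inhibitor and 22.7 with vehicle (chr5:107900270-107901690, in gene, shared with Fam69a), and its peaks were 5 and 48. Its inhibitor signal ranked above only 4.02% of all genes. Rpl19, a large subunit protein, had 5.86 with inhibitor and 38.3 with vehicle (chr11:98025935-98027917, shared with Cacnb1 and Stac2, -2.52). Rplp0, the base of the stalk that recruits elongation factors, had 4.68 and 29.7 (chr5:115559164-115560342, -2.43). The vehicle signals of Rpl5, Rpl19 and Rplp0 ranked above 67.4%, 95.7% and 86.2% of all genes.

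The other members with the lowest differences had low signal with inhibitor rather than high signal with vehicle. Rpl32, a large subunit protein, had 2.83 with inhibitor and 19.0 with vehicle (chr6:115807793-115809274, -2.38). Rps23, which lies by the decoding centre, had 2.94 with inhibitor and 18.1 with vehicle (chr13:90922622-90923854, -2.28). All genes in the same decile of vehicle signal had median differences of -1.74 and -1.66 for these 2 genes, and of -1.83 for Rpl5. With peak signal the 5 genes stood at -3.03 (Rpl5), -2.64 (Rpl19), -2.45 (Rplp0), -2.65 (Rpl32) and -2.50 (Rps23).

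Rpl13a, Rpl23a, Rpl7l1 and Rps4x were among the members with the differences nearest 0. The region of Rpl13a, a large subunit protein, is centred 7116 bp downstream of its start and is shared with other genes. It had 6.09 with inhibitor and 11.2 with vehicle (-0.79), so the value is not that of its promoter. Rpl23a, which lies at the exit of the peptide tunnel and contacts the signal recognition particle, had 7.07 with inhibitor and 13.7 with vehicle (chr11:78182877-78183809, -0.86). An interval was called there with inhibitor, although its vehicle signal exceeded that of only 23.1% of genes. Rpl7l1, a paralog of Rpl7, had 6.71 and 14.3 (chr17:46781928-46783405, -0.99). All genes in the same decile of vehicle signal had medians of -1.24 for Rpl13a and -1.44 for Rpl23a and Rpl7l1.

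An interval was called with inhibitor in the nearest region of 16 members (20.5%), against 17.5% of all genes, and all 16 were promoter-marked (22.2%, against 18.3%). Vehicle intervals were called at all 78. The 16 regions had median signals of 7.18 with inhibitor and 26.6 with vehicle, and the other 62 had 5.5 and 20.6. The strongest of them, Rpl9 and Rps27, had inhibitor signals of 11 and 10.1, and Rps27 (32.1 with vehicle, -1.57) was less negative than the median of -1.99 for all genes in its decile of vehicle signal. Rps6, the substrate of the S6 kinases, was called with inhibitor at a signal of only 4.95 (26.7 with vehicle, -2.22). Rps12, with 8.18 and 21.0 (-1.26), was not called in spite of an inhibitor signal above that of 93.1% of genes. A call therefore did not follow the average signal alone.

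Large subunit genes had a lower median than small subunit genes, with wide overlap. The 45 large subunit genes had median signals of 5.80 with inhibitor and 22.7 with vehicle and a median difference of -1.88, with quartiles of -1.997 and -1.60. The 29 small subunit genes had 5.62 and 21.0 and a median of -1.67, with quartiles of -1.88 and -1.47. At least 4-fold lower were 11 large subunit genes (24.4%) and 3 small subunit genes (10.3%), namely Rps23, Rps6 and Rps13, against 23% of all genes. The gap of -0.21 between the medians was -0.11 without the pseudocount and -0.15 for promoter-marked genes. The stalk genes Rplp0, Rplp1 and Rplp2, which carry the flexible arms for elongation factors, stood at -2.43, -1.91 and -1.77. Rplp1 had 5.88 with inhibitor and 24.8 with vehicle, and Rplp2 had 7.31 and 27.3.

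The members on chromosome X had lower median signals than the others in both libraries, with overlap between single genes. Their medians were 4.59 with inhibitor and 12.8 with vehicle, against 5.82 and 22.9 for the autosomal members. Rps4x, a small subunit protein, had 4.90 with inhibitor and 10.9 with vehicle (chrX:102188544-102189470, -1.01), and Rpl39, which lines the exit tunnel, had 4.89 and 12.9 (-1.24). Rpl10, a late-joining protein of the large subunit, had 4.19 and 16.0 (-1.71), and Rpl36a had 4.30 and 12.7 (-1.37) at a region centred -3101 bp from its start and shared with Btk and Gla. The 4 genes had a median difference of -1.31, against -1.82 for the 74 autosomal members. All promoter-marked genes on chromosome X had medians of 4.96 with inhibitor and 16.1 with vehicle (-1.58), against 5.41 and 19.9 (-1.77) on the autosomes. None of the 4 was called with inhibitor, and 6.69% of promoter-marked genes on chromosome X were.

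The paralogs of the named pairs ranged from -2.17 to -0.99. Rpl22l1, the paralog of the RNA-binding large subunit protein Rpl22, had 5.40 with inhibitor and 27.7 with vehicle (-2.17), and Rpl22 had 4.5 and 20.02 (-1.93). Rps27l, a target of p53, had 8.62 and 25.5 (-1.46), and Rps27 stood at -1.57, and both were called with inhibitor. Rpl7l1 stood at -0.99 and Rpl7, with 5.70 and 19.0, at -1.58. Rpl36al, an autosomal copy of Rpl36a, had 5.47 and 26.3 (-2.07) in a region shared with Lrr1, Mgat2 and Dnaaf2. The vehicle signal was 12.7 for Rpl36a, but in a region centred -3101 bp from its start, so the 2 promoters are not compared. Rpl3l, a paralog known from striated muscle, was assigned a region centred -3670 bp from its start (5.69 and 19.6, -1.63) that also lies by Rps2 and Ndufb10. Rpl3 itself had no region near its start, and its nearest was centred at -7944 bp by Syngr1 (4.62 and 12.3, -1.25). Rps29 was likewise assigned a region centred at -9523 bp, by Lrr1, with 5.51 with inhibitor and 17.1 with vehicle (-1.48). Ribosomal protein genes have many near-identical processed copies, and the part of reads shared with them was not tested.

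A list of 9 genes mutated in Diamond-Blackfan anaemia, an inherited failure of red cell production, ranged from -2.61 to -1.22. The list does not hold every gene linked to the disease. All 9 were at least 2-fold lower, as were 94.9% of all genes, with a median of -1.67, and 0 of the 9 were called with inhibitor, against 17.5% of all genes. Rpl5 and Rpl11 (6.46 with inhibitor and 29.97 with vehicle, -2.05) were at least 4-fold lower. Rps19, the gene most often mutated, had 5.91 and 20.9 (-1.67), and Rps24 had 6.57 and 16.7 (-1.22). Rps7, Rpl35a, Rps26 and Rps10 stood between, at -1.67, -1.61, -1.47 and -1.45. Rpl23, which binds MDM2 like Rpl5 and Rpl11, had 7.41 and 26.2 (-1.69), so the 3 MDM2-binding members did not share a value.

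Most members shared their region with other genes. Of the 78, 67 lay in a region with at least 1 other assigned gene (85.9%), against 64.1% of all genes. The share was 86.5% of oxidative phosphorylation subunit genes, 77.1% of mitochondrial ribosomal protein genes and 51.0% of translation initiation factor genes. For 23 members these included a small nucleolar RNA gene, a class often encoded in introns of ribosomal protein genes. The 67 had a median difference of -1.79 and the 11 alone in their region -1.98. The 23 had a median of -1.76, with 5 at least 4-fold lower (21.7%), and the other 55 a median of -1.82, with 10 at least 4-fold lower (18.2%), against 23% of all genes. For a shared region the signal cannot be divided among its genes.

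Additional regions were assigned to 33 members, in 54 pairs of a gene and a region. None lay inside the gene, their centres lay between 2224 and 15602 bp from the start, and 46 of the 53 distinct regions overlapped a promoter. Their median signals were 5.27 with inhibitor and 14.5 with vehicle, and their median difference was -1.52. In 39 of 54 pairs the additional region was less negative than the nearest one, and in 15 it had the higher vehicle signal. The strongest, 8063 bp downstream of the start of Rpl24 (chr16:55972928-55975749, also assigned to Zbtb11), had 12.0 with inhibitor and 60.1 with vehicle (-2.23), whereas the region at the start of Rpl24 had 4.07 and 15.5 (-1.70). Of the 53 regions, 5 were called with inhibitor, against 10.3% of all regions. One of these, 391 bp long and 10005 bp downstream of the start of Rps15 (chr10:80302241-80302632, also assigned to Apc2), had 12.25 with inhibitor and 6.25 with vehicle and no vehicle interval. It was the only member region with a higher signal with inhibitor (0.87), and the nearest region of Rps15 stood at -1.65.

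**Figure D4:**
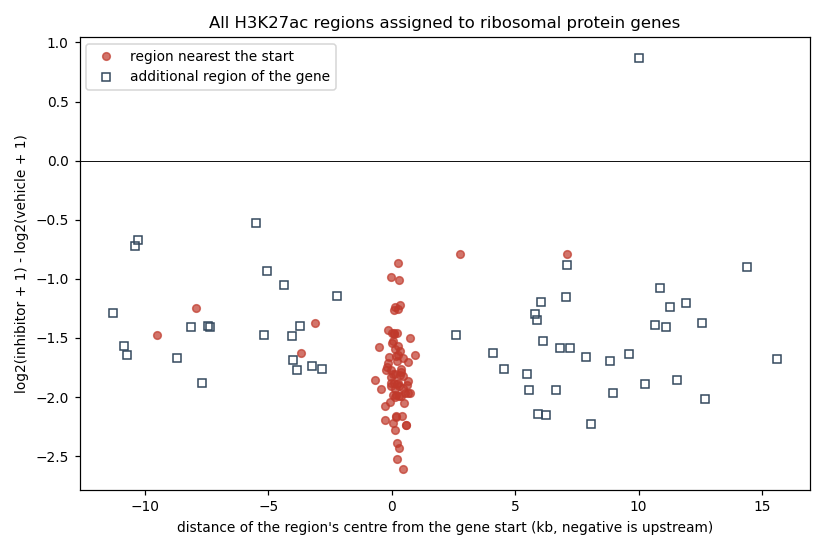
The log2 difference (y axis) of every region assigned to a ribosomal protein gene is plotted against the distance of its centre from the gene start (x axis, kb), with the nearest region of each gene as a filled circle and additional regions as open squares. The nearest regions cluster at the start with a median of -1.81, the additional ones have a median of -1.52, and the region above 0 belongs to Rps15.

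The gene groups closest in function had differences in the same range. These groups were taken by symbol alone. The symbols beginning with Eif also take in Eif4ebp1, a regulator and not itself an initiation factor. The median difference was -1.81 in ribosomal protein genes, against -1.77 in 70 mitochondrial ribosomal protein genes, -1.92 in 51 translation initiation factor genes and -1.84 in 74 oxidative phosphorylation subunit genes. The sign of the gap to the mitochondrial ribosomal protein genes turned with peak signal and without the pseudocount. At least 4-fold lower were 19.2% of ribosomal protein genes, against 27.1%, 39.2% and 36.5%. Called with inhibitor were 20.5% of ribosomal protein genes, against 8.57%, 31.4% and 13.5%. Median vehicle signals were 22.7, against 18.6, 26.3 and 22.4. Genes of a group are not replicates of a treatment, so these values are given without a test.

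**Figure D5:**
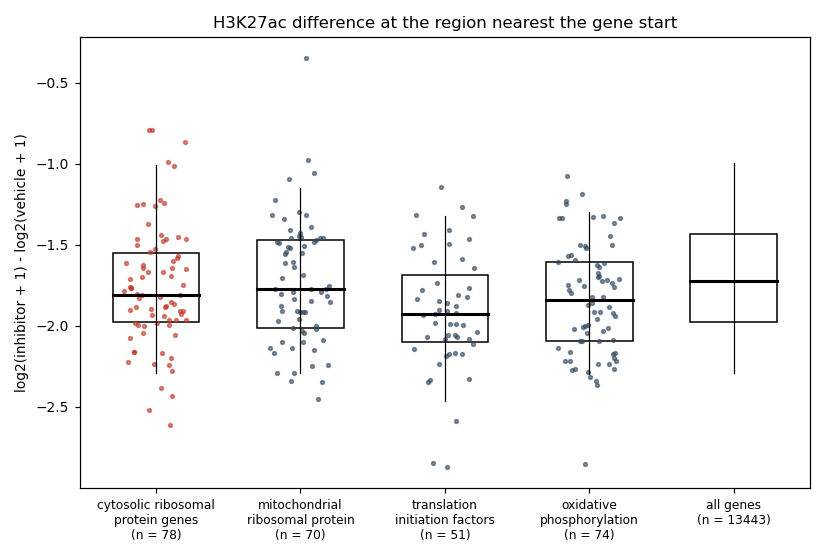
Points are genes and boxes give the median and quartiles, with lines from the 5th to the 95th percentile, of the log2 difference (y axis) in cytosolic ribosomal protein genes, the 3 groups most like them and all genes (box only). The boxes overlap, with medians of -1.81, -1.77, -1.92, -1.84 and -1.72 from left to right.

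The other genes of the pathway were lower with inhibitor as well. Of 22 listed genes with TOP messengers other than the members, 20 had a region, all 20 were at least 2-fold lower and none higher, and their median was -1.93. Ribosomal proteins outside the symbol pattern were among them. Rpsa, on the small subunit, had 4.41 with inhibitor and 21.5 with vehicle (-2.06), and Fau, which is made as a fusion with a ubiquitin-like protein, had 7.57 and 32.2 (-1.95) in a region centred 3830 bp away. Gnb2l1, an older symbol of the scaffold Rack1, stood at -1.86. All 36 ribosome biogenesis genes were at least 2-fold lower (median -1.82), from Nhp2, part of the small nucleolar ribonucleoproteins, at -2.50 to Utp20 at -1.20. All 15 genes of RNA polymerase I and its factors were so too (median -1.70), as were 15 of 15 regulators with a region (median -1.93). Among the regulators were Yy1 (-1.95), Larp1 (-1.78), Mtor (-1.83) and Myc (-1.43), the last in a region centred 2498 bp from its start. The region was centred over 1000 bp away for 3 TOP genes, 2 biogenesis genes, 1 polymerase I gene (Polr1b, 28899 bp) and 2 regulators. With 94.9% of all genes at least 2-fold lower, the counts of lower genes do not set any list apart.

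Regions at marker genes of the sorted cell type and of other cell types were looked up. A region was assigned to 4 of 5 genes of the sort gate, Ly6c1 being the exception, and to 7 of 8 neutrophil and monocyte genes, Ccr2 being the exception. With vehicle the sort gate genes had signals of 17.8 (Ptprc), 15.2 (Ly6g), 13.8 (Ly6c2) and 13.5 (Itgam). Neutrophil and monocyte genes ranged from 10.9 at Mpo to 38.6 at Spi1. Adgre1, which encodes the F4/80 antigen that was gated out, had a region with 3.70 with inhibitor and 12.8 with vehicle. Of 6 T, B and NK cell genes, Cd3g (3.88 with inhibitor and 14.1 with vehicle) and Cd79a (1.75 and 10.1) had a region, and Cd3e, Ncr1 and Klrb1c were among those with none. Of 4 epithelial and stromal genes, Krt8 (5.72 and 10.9) and Pecam1 (2.40 and 11.9) had one and Epcam and Col1a1 had none. The regions of Mpo, Csf1r, Cd3g, Krt8 and Pecam1 were centred over 1000 bp from the start, that of Pecam1 at 10691 bp. Vehicle signals of the marker classes overlapped, so a region alone does not identify the cell type. Fewer cells of a type and less acetylation per cell cannot be told apart in such libraries, and the part of cell composition in the differences at ribosomal protein genes was not tested.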

How the data were processed

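H3K27ac ChIP-seq of sorted MDSC was analysed from 1 deposited table of 22399 regions. BWA and SICER, and the builds hg19 and dm3, are named in the submitters' processing notes, without versions. Drosophila chromatin was added as spike-in, per the labels' protocols. The deposited signal is an average and a peak of fragment pileup per region and library. Depth, and any scaling by the spike-in, are not given here by the sources. The average appears to leave out empty stretches, since none lies between 0 and 1. The average times the number of 32 bp bins was whole, within rounding, in 49.5% of inhibitor and 95.0% of vehicle regions, so this would raise mainly the inhibitor signal and understate the printed differences. A deposited 0 or 1 (unit other, per the file headers) tells whether an interval was called. Region coordinates are printed as in the table, which names no build. The distances from gene starts gave RefSeq GRCm38 starts within 10 bp for 49 of 59 members, and GRCm38 is named for them.

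Each gene took the region whose centre lies nearest its start. The difference used a pseudocount of 1, which understates differences at weak regions. No filter on low values was added to the authors' interval calls, so all 78 members were kept. With 1 library per treatment no test was run. Functions were tested on simulated data with Python 3.11.15 and pandas 2.3.3. Named genes were the 5 lowest and 5 highest differences, the 3 highest and lowest vehicle signals, and fixed sets (stalk, chromosome X, Diamond-Blackfan anaemia, MDM2 binding, paralog pairs, Rps6, ribosomal proteins outside the symbol pattern, regions over 1000 bp away, members with no vehicle call, of which there were 0). Rps12, Rpl24 and Rps15 were named after their values were seen, as were the additional regions and genes from the pathway lists. Some genes that the rule names are not reported here. Members and lists were chosen with earlier results of these data known.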

Additional observations from a re-analysis of the deposited data

How the results depend on the processing

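No paired analysis was possible because each treatment has 1 library. With differences recentred on the median of all regions, the median of the members was -0.20 (large subunit -0.27, small subunit -0.060), 1 member was at least 2-fold and 0 at least 4-fold lower, against 0.521% and 0.00744% of all genes, and among named genes at least 2-fold lower before it the differences were above 0 at Rpl3 (0.36), Rpl36a (0.23), Rpl39 (0.36), Rpl7 (0.026), Rps10 (0.15), Rps24 (0.38), Rps26 (0.14), Rps27 (0.035), Rps27l (0.14), Rps29 (0.13) and Rps4x (0.59). The recentring subtracts the same -1.61 from each of them. Without a pseudocount the median was -1.98 (large subunit -1.99, small subunit -1.88, gap -0.11), 35 members were at least 4-fold lower, against 41.2% of all genes, and the gap to mitochondrial ribosomal protein genes was 0.031 in place of -0.035. With peak signal the medians were 13.5 with inhibitor and 52.5 with vehicle, the large subunit median was -2, 34 members were at least 4-fold lower, against 37.3% of all genes, the gap to mitochondrial ribosomal protein genes was 0.057 and that to oxidative phosphorylation genes 0.14 in place of 0.034. Averaging each gene over its assigned regions gave a gap to oxidative phosphorylation genes of -0.016. The cause of these turns was not tested. The gap of the member median to that of all genes was negative under the 10 alternatives that could change it, between -0.10 and -0.03; recentring cannot change it. Without signal depth, no counting error can be given.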
